A study of Homo sapiens with 4 samples.

Results

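The Abasic hairpin is a synthetic DNA substrate of the single-cell repair assay Haircut, and its readout is the full set of repair signal rows whose substrate name is Abasic. The rule kept every row of that name at positions 1 to 61, which gave 61 rows, 1 row for each position. The repair signal held 9 substrates with 61 positions each. The comparison covered 3367 cells treated with estradiol and 4940 cells treated with vehicle. All cells were MDA MB 134VI (MM134), an established line of invasive lobular breast carcinoma whose genotype is labelled WT. The cells had been kept without hormone in charcoal-stripped serum, and then received 100 nM estradiol or 0.01% ethanol as vehicle for 24 h. Each treatment had 1 repair library, prepared with 10x 3′ reagents of v2 chemistry. A difference between the treatments and a difference between the 2 preparations therefore cannot be told apart. No test between treatments was possible and no p-value is given.

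An abasic site is a position in DNA that has lost its base, either spontaneously or because a glycosylase removed a damaged base. In human cells the endonuclease APE1, encoded by APEX1, cuts the backbone beside the abasic site, and DNA polymerase beta and a DNA ligase then fill and seal the gap. Haircut offers hairpins with defined lesions to the enzymes of single cells and records where the tagged strand ends. A strand cut at the lesion therefore ends at another position than an uncut strand. Strand ends were counted as unique molecular identifiers (UMIs), which collapse copies of 1 captured molecule. The position of the lesion within the 61 positions, the hairpin's sequence and the end from which positions are numbered are not given in the sources used here. No sequence is printed for that reason.

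The estradiol library held 272961 Abasic UMIs among 4479977 repair UMIs, and the vehicle library 308381 among 4738500. The median cell held 77 Abasic UMIs (range 1 to 319) in the estradiol library and 59 (range 0 to 342) in the vehicle library. A single vehicle cell had none. The estradiol library was deeper per cell, with medians of 1311 repair UMIs and 1561 UMIs of all genes, against 930 and 1199 in the vehicle library. The luminal markers ESR1 and GATA3 had 273 and 858 UMIs per 1000000 all-gene UMIs (CPM) with estradiol, and 262 and 970 CPM with vehicle. Luminal KRT8 had 1359 and 756 CPM, estradiol first. KRT5, KRT14, PTPRC and PECAM1 had 0 all-gene UMIs in either library. At 3 counts this allows up to 0.505 CPM with estradiol and 0.434 CPM with vehicle. Other non-luminal markers were detected. The basal marker OXTR had 6.06 CPM with estradiol and 5.06 CPM with vehicle. The mesenchymal markers VIM, FN1 and COL1A1 had 119, 31.2 and 21.1 CPM with estradiol, and 158, 34.3 and 26.0 CPM with vehicle. In a targeted gene panel TP63 had 13 UMIs with estradiol and 25 with vehicle, and PTPRC 0 and 3. CDH1, whose protein E-cadherin is typically lost in lobular carcinoma, had 10.3 CPM with estradiol and 10.1 CPM with vehicle. The 2 libraries shared 4 cell barcodes.

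Abasic signal was concentrated at a single position. Position 46 held 116457 UMIs in the estradiol library and 146280 in the vehicle library. This was 42.7% of Abasic UMIs with estradiol (exact 95% interval 42.5% to 42.9%) and 47.4% with vehicle (47.3% to 47.6%). Shares are given with exact Clopper-Pearson intervals, and ratios between libraries with exact intervals conditional on the sum of both counts. These intervals cover counting error only and leave out the variation between cells and between cultures. Its neighbour, position 45, held 8.04% of Abasic UMIs with estradiol and 8.97% with vehicle. Position 46 thus had 5.31 UMIs for each UMI of position 45 in the estradiol library and 5.29 in the vehicle library.

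The other 8 substrates did not share this ratio. The Uracil1 hairpin, which by its name carries a uracil, had 0.277 UMIs at position 46 for each UMI at position 45 with estradiol and 0.247 with vehicle. The ratio was 0.191 and 0.183 for Uracil2, 0.108 and 0.101 for Uracil3, and 0.111 and 0.111 for GU, estradiol first. It was 0.404 and 0.370 for riboG. It was 0.401 and 0.401 for TI, which had only 0.212% and 0.253% of its UMIs at positions 44 to 50. In these 6 substrates position 45 was the highest of positions 44 to 50, while in Abasic it was position 46. The Normal hairpin, which carries no lesion by its name, held 0.0117% of its own UMIs at position 46 with estradiol and 0.00967% with vehicle. The Abasic position 46 signal was therefore far above the lesion-free background in both libraries. The CI and Normal hairpins had few UMIs at both positions, and like Abasic more at position 46. CI had 117 UMIs at position 46 and 86 at position 45 with estradiol, a ratio of 1.36, and 122 and 117 with vehicle, a ratio of 1.04. Normal had 73 and 46 with estradiol, a ratio of 1.59, and 64 and 56 with vehicle, a ratio of 1.14.

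The other positions of the stretch from 44 to 50 were smaller. With estradiol they held 0.297% of Abasic UMIs at position 44, 2.65% at 47, 2.40% at 48, 0.387% at 49 and 1.41% at 50. With vehicle they held 0.348% at position 44, 2.59% at 47, 2.56% at 48, 0.389% at 49 and 1.48% at 50. The stretch as a whole, called the window below, held 57.9% of Abasic UMIs with estradiol (57.67% to 58.04%) and 63.8% with vehicle (63.60% to 63.94%). The same window held 0.102% of Normal UMIs with estradiol and 0.113% with vehicle, and 28.0% and 27.4% of Uracil1 UMIs.

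A second group of ends lay at the low-numbered positions. Position 1 held 33064 UMIs with estradiol and 31990 with vehicle, or 12.1% and 10.4% of Abasic UMIs. Position 2 held 8.30% with estradiol and 7.48% with vehicle. Position 6 followed with 4.91% and 4.29%, position 8 with 2.67% and 2.15%, and position 19 with 1.59% and 1.21%, estradiol first in each pair. Positions 1 to 10 together held 32.9% of Abasic UMIs with estradiol and 28.2% with vehicle. Positions 11 to 20 held only 6.15% and 5.06%, where the Normal hairpin had 52.8% and 49.9% of its own UMIs and Uracil1 31.2% and 30.2%. Abasic had 513 UMIs with estradiol and 484 with vehicle at position 20, which was the top position of Normal with 25.8% and 23.1% of its own UMIs.

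Between these groups the Abasic profile was nearly empty. Positions 27 to 43 held 440 of the Abasic UMIs with estradiol and 463 with vehicle, or 0.161% and 0.150%. The same 17 positions held 7.40% and 7.90% of Normal UMIs and 4.74% and 5.48% of Uracil1 UMIs. The highest position of the stretch from 21 to 30 was 21, with 746 UMIs with estradiol and 771 with vehicle. The highest of 31 to 40 was position 31, with 47 and 32. Signal beyond the window was low as well. Positions 51 to 61 held 2.26% of Abasic UMIs in each library, led by position 52 with 0.751% with estradiol and 0.784% with vehicle. The last position, 61, had 8 UMIs with estradiol and 15 with vehicle.

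In the whole libraries the Abasic profile was shifted from the window to the low-numbered positions in estradiol-treated cells. Of the 61 positions, 40 had at least 200 UMIs over both libraries, and the 21 others held 1322 UMIs in all. All 23 positions from 1 to 23 passed this minimum, and all 23 had a larger share of Abasic UMIs with estradiol, 20 of them with an interval above no difference. In the window 6 of 7 positions had a smaller share with estradiol, 5 of them with an interval below no difference. The exception was position 47, with a log2 ratio of 0.04 (-0.01 to 0.08). Beyond the window 4 positions were higher and 4 lower. Because shares of 1 hairpin sum to a fixed total, a lower share in the window and a higher share elsewhere are the same observation.

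The largest differences were modest. Among positions with at least 200 UMIs, the 5 highest log2 ratios of own share, estradiol over vehicle, were 0.62 at position 24 (0.24 to 1.01), 0.43 at positions 3 and 15, 0.42 at position 7 and 0.39 at position 19. Position 24 had 136 UMIs with estradiol and 100 with vehicle, the fewest of the 5. The 5 lowest were -0.23 at position 44 (-0.36 to -0.10), -0.18 at position 56, -0.16 at position 45, -0.15 at position 46 and -0.14 at position 55. The intervals of positions 55 and 56 included no difference. Positions 1 and 2 had log2 ratios of 0.22 (0.20 to 0.25) and 0.15 (0.12 to 0.18).

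The same comparison can be made on the scale of all repair UMIs, so that other substrates enter the denominator. Abasic took 6.09% of repair UMIs with estradiol and 6.51% with vehicle, a log2 ratio of -0.10 (-0.10 to -0.09). Its window took 3.53% of repair UMIs with estradiol and 4.15% with vehicle, a log2 ratio of -0.24 (-0.25 to -0.23). The positions outside the window took 2.57% with estradiol and 2.36% with vehicle, a log2 ratio of 0.12 (0.11 to 0.14). On this scale none of the 40 Abasic positions (0 in either direction) differed by 1.5-fold or more. Over all repair rows with at least 200 UMIs, 0.683% were that much higher and 0.456% that much lower. The median log2 ratio was 0.08 over the 40 Abasic positions and 0.00 over all 439 repair rows of that depth.

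Scaled per cell, the window and the low-numbered positions behaved differently with the depth of a cell. Cells of each library were ordered by their UMIs of all genes, and the 25% with most were set beside the 25% with fewest. Median all-gene UMIs in these groups were 2733 and 976 with estradiol, and 2201 and 714 with vehicle. In the estradiol library position 46 had 32.9 UMIs per cell in the deepest cells and 34.4 in the shallowest, a ratio of 0.954. In the vehicle library it had 28.3 and 28.5, a ratio of 0.994. Position 45 had ratios of 1.01 in both libraries, and position 44 had 1.11 in both. The number of strands that ended at positions 44 to 46 of Abasic was thus nearly the same in transcript-rich and transcript-poor cells.

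The rest of the profile grew with depth. Positions 47 to 50 had ratios of 1.53 to 1.81 in the estradiol library and 1.924 to 2.301 in the vehicle library, so the window was not uniform. Position 1 had 12.3 UMIs per cell in the deepest and 8.23 in the shallowest estradiol cells, a ratio of 1.498, and 8.09 and 5.24 in vehicle cells, a ratio of 1.54. Position 6 had ratios of 3.42 with estradiol and 4.13 with vehicle, and position 15 had 8.28 and 12.9. Over the 21 positions from 3 to 23 the median ratio was 4.02 with estradiol and 4.34 with vehicle. Positions outside the window as a group had ratios of 2.45 and 2.77, and the whole hairpin 1.49 and 1.54.

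Normal and Uracil1 had other ratios at the same positions. Positions 44 to 46 of Abasic together had a ratio of 0.963 with estradiol and 0.998 with vehicle, against 1.22 and 1.65 for those of Uracil1. Uracil1 also had a lower ratio at the start of the window than at its end, with 1.10 and 1.45 at position 45, 1.805 and 2.923 at position 46, and 2.14 and 3.62 over positions 47 to 50. Positions 1 to 10 of Abasic had 2.26 and 2.49, against 0.907 and 0.924 for those of Normal. The whole hairpin had similar ratios in the 3 substrates, with 1.49 and 1.54 for Abasic, 1.56 and 1.75 for Normal, and 1.49 and 1.78 for Uracil1, estradiol first.

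These depth relations appeared in the window share as well. Cells were put into 5 bins of all-gene UMIs, a grouping chosen after seeing the data. In cells under 1000 all-gene UMIs the window held 67.6% of Abasic UMIs with estradiol and 72.9% with vehicle. From 1000 to under 1500 it held 65.7% and 67.8%, from 1500 to under 2000 it held 59.02% and 60.24%, and from 2000 to under 3000 it held 51.9% and 52.4%. At 3000 and above it held 40.4% with estradiol and 40.9% with vehicle. The window share was thus lower in each deeper bin in both libraries, and the range over the bins far exceeded the difference between treatments. Window UMIs per cell ran from 44.3 to 47.9 over the bins with estradiol and from 37.4 to 41.6 with vehicle. UMIs per cell at positions 1 to 20 were 19.5, 22.7, 31.1, 41.03 and 62.5 in the estradiol library from the shallowest bin to the deepest, and 13.0, 18.0, 25.2, 33.9 and 48.2 in the vehicle library.

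Within bins of all-gene UMIs the difference in window share between treatments was smaller than in the whole libraries. The log2 ratio was -0.14 (-0.15 to -0.13) over all cells, -0.11 (-0.13 to -0.09) under 1000 all-gene UMIs, -0.05 (-0.06 to -0.03) from 1000 to under 1500 and -0.03 (-0.05 to -0.01) from 1500 to under 2000. It was -0.01 (-0.04 to 0.01) from 2000 to under 3000 and -0.02 (-0.06 to 0.02) at 3000 and above. With equal weight to each bin it was -0.05. Depth in repair UMIs gave another result. In cells thinned to 500 repair UMIs the window log2 ratio was -0.1385, against -0.1405 over all cells. In 4 groups of each library's cells ordered by repair UMIs it was -0.12, -0.16, -0.16 and -0.13, from fewest to most. These groups were formed within each library and did not match the libraries in repair UMIs. The estradiol library had 469 cells in the shallowest bin and 291 in the deepest, and the vehicle library 1770 and 222. No bin matched the libraries in repair UMIs, and the shallowest did not match them in all-gene UMIs either. The median cell of the shallowest bin had 879 all-gene and 1062 repair UMIs with estradiol, and 781 and 760 with vehicle. From the next bin to the deepest, median repair UMIs were 1184, 1349, 1515 and 1736 with estradiol, and 946, 1112, 1204 and 1355 with vehicle. For position 46 alone the equal-weight log2 ratio was -0.04, against -0.15 over all cells. The position 46 ratio was 0.01 (-0.02 to 0.04) from 2000 to under 3000 and 0.03 (-0.02 to 0.08) at 3000 and above, so its sign changed there and both intervals included no difference.

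Position 1 differed between treatments by more than counting error in each bin. Its share was 12.5%, 11.8%, 12.6%, 11.8% and 12.3% of Abasic UMIs in the estradiol library from the shallowest bin to the deepest, and 10.4%, 10.3%, 10.8%, 10.5% and 9.21% in the vehicle library. The lowest of the 5 estradiol values lay above the highest of the 5 vehicle values, and the log2 ratio ran from 0.17 to 0.42 with all 5 intervals above no difference. The share was also higher with estradiol in all 3 phases, with log2 ratios of 0.18 to 0.27, and in all 8 clusters, with log2 ratios of 0.00 to 0.38 and 7 of 8 intervals above no difference. The exception was cluster 5, with 12.2% in both libraries. Over the 22 combinations of cluster and bin with at least 20 cells in each library, 18 had a higher share at position 1 with estradiol, 9 of them with an interval above no difference. Normal and Uracil1 went the other way at their own position 1, with 2.73% and 2.20% with estradiol and 3.33% and 2.34% with vehicle. Position 6 was higher with estradiol only in the shallowest bin, with 2.98% with estradiol and 2.48% with vehicle. From the next bin to the deepest it held 3.52%, 4.69%, 6.06% and 8.08% with estradiol and 3.58%, 5.04%, 6.54% and 8.24% with vehicle. Its log2 ratio was 0.20 (0.16 to 0.23) over all cells and -0.03 with equal weight to the bins, and those of positions 15 and 24 were -0.01 and -0.01 with that weight. Positions 2, 3 and 8 kept their sign with that weight, at 0.045, 0.055 and 0.036. Positions 7 and 19 kept theirs as well, at 0.14 and 0.12. In the window positions 44, 48 and 50 had -0.15, -0.17 and -0.15 with that weight, against -0.23, -0.09 and -0.07 over all cells.

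The deposited annotation assigns each cell to phase G1, S or G2M of the cell cycle. The window held 60.9% of Abasic UMIs in G1, 58.7% in S and 54.7% in G2M cells treated with estradiol. It held 67.0% in G1, 65.8% in S and 58.8% in G2M cells treated with vehicle. The share was lower with estradiol in each phase, with log2 ratios of -0.14 in G1, -0.16 in S and -0.11 in G2M. Median all-gene UMIs were 1309, 1479 and 1810 in G1, S and G2M with estradiol and 978, 1209 and 1536.5 with vehicle, so phases differed in depth in the same order. Window UMIs per cell were 46.6, 46.9 and 47.2 in G1, S and G2M with estradiol and 39.6, 39.9 and 40.1 with vehicle. Those at positions 1 to 20 were 28.0, 30.6 and 36.0 with estradiol and 18.1, 19.1 and 25.5 with vehicle.

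At a given depth the spread over phases depended on the bin. In cells under 1000 all-gene UMIs the window held 69.3%, 64.6% and 67.3% in G1, S and G2M with estradiol, and 73.5%, 73.1% and 69.2% with vehicle. From 1000 to under 1500 it held 67.7%, 65.5% and 63.1% with estradiol and 68.8%, 69.5% and 65.8% with vehicle. From 1500 to under 2000 it held 61.96%, 60.85% and 56.4% with estradiol and 60.5%, 62.7% and 59.4% with vehicle. The phases lay closer together in the deepest bins. In cells with 2000 to under 3000 all-gene UMIs the window held 52.1%, 51.7% and 51.9% in G1, S and G2M with estradiol, and 53.2%, 53.5% and 51.7% with vehicle. At 3000 and above it held 39.1%, 41.7% and 40.4% with estradiol and 40.9%, 40.6% and 40.9% with vehicle. Over the 15 combinations of phase and bin, the window share was lower with estradiol in 12 and higher in 3, with 5 intervals below no difference and 0 above. Uracil1 had another order of phases, with its window share highest in S, at 33.0% with estradiol and 33.9% with vehicle, against 26.6% and 26.7% in G1 and 25.6% and 25.6% in G2M.

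The annotation also holds 8 clusters, numbered 0 to 7, which are named here by number. With estradiol the window share ran from 45.4% in cluster 3 to 68.8% in cluster 2. With vehicle it ran from 45.9% in cluster 3 to 74.0% in cluster 2. The same 2 clusters stood at the ends for position 46, with 31.4% in cluster 3 and 52.8% in cluster 2 with estradiol, and 30.8% and 57.4% with vehicle. Cluster 3 was also the deepest and cluster 2 the shallowest, with medians of 2769.5 and 728.5 all-gene UMIs with estradiol and 2785 and 748 with vehicle.

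Cluster sizes differed strongly between the libraries. Cluster 2 held 82 of the estradiol cells and 1150 of the vehicle cells, and cluster 6 held 79 and 626. Cluster 3 held 650 and 421. Within all 8 clusters the window share was lower with estradiol, with differences of -5.23 to -0.509 percentage points, and 5 of the 8 intervals lay below no difference. The window held 58.8% with estradiol and 62.6% with vehicle in cluster 0, 65.5% and 69.1% in cluster 1, 53.0% and 56.3% in cluster 4, and 63.7% and 67.8% in cluster 7. In clusters 3, 5 and 6 the interval included no difference, with 66.6% and 67.8% in cluster 5 and 62.5% and 63.6% in cluster 6. Given equal weight, the 8 clusters had a log2 ratio of -0.07 for the window and -0.06 for position 46. Without cluster 3 the log2 ratio was -0.09 for the window and -0.10 for position 46.

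Some clusters stayed apart at a given depth. In cells with 1500 to under 2000 all-gene UMIs the window held 62.5% in cluster 1 and 54.9% in cluster 4 with estradiol, and 63.6% and 58.6% with vehicle. Cluster 3 held 56.1% with estradiol and 57.3% with vehicle in that bin, and 39.2% in each library at 3000 and above. Of the 22 combinations of cluster and bin, 16 had a lower window share with estradiol and 6 a higher one. There were 10 intervals below no difference and 1 above, that of cluster 4 at 3000 and above, with 46.87% with estradiol and 44.01% with vehicle.

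Single cells spread widely around these shares. Cells with at least 50 Abasic UMIs numbered 2954 of 3367 with estradiol and 3397 of 4940 with vehicle. This minimum left out a larger part of the vehicle cells, so the cells kept were not selected alike in the libraries. The window share of the cells kept had a median of 62.3% with estradiol, from 3.42% to 92.6%. With vehicle the median was 66.3%, from 5.62% to 96.2%. The mean squared deviation from the library's pooled share was 9.66 times that of binomial sampling with estradiol and 8.47 times with vehicle. Cells below 30% made up 4.47% (132 cells) with estradiol and 3.24% (110 cells) with vehicle. Cells at 80% or above made up 7.55% (223 cells) and 13.3% (452 cells). In cluster 3, 10.8% of such estradiol cells and 11.6% of such vehicle cells were below 30%. In cluster 2, 21.8% (12 of 55 estradiol cells) and 32.3% (184 of 570 vehicle cells) were at 80% or above. Of the same cluster 2 cells, 7.27% and 2.11% were below 30%. In cluster 7, 20.3% of such estradiol cells and 15% of such vehicle cells were at 80% or above.

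No transcript of the abasic site repair list reached a 1.5-fold difference between the libraries. APEX1 (chromosome 14, 20455226 to 20457767, GRCh38.p14 in RefSeq), which encodes the nuclease that cuts at abasic sites, had 1089 UMIs or 183 CPM with estradiol and 1189 UMIs or 172 CPM with vehicle. Its log2 ratio was 0.09 (-0.03 to 0.21), so no difference was detectable at this depth. APEX1 had 200, 188 and 167 CPM in G1, S and G2M with estradiol and 187, 175 and 155 CPM with vehicle. POLB, which fills the gap, had 18.2 CPM with estradiol and 19.8 CPM with vehicle, and XRCC1, a scaffold of the ligation step, had 60.8 and 51.5 CPM. The ligase gene LIG3 had 68.2 CPM in each library.

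In a list of 36 base excision and strand break repair genes, all had at least 50 UMIs in the all-gene rows, and 0 differed by 1.5-fold or more in either direction. Over the 10977 genes of that depth 3.82% were that much higher and 6.67% that much lower. The list's median log2 ratio was 0.16, against -0.03 over those genes, with 26 members above no difference and 10 below. Counting intervals lay above no difference for 14 of the 36 and below it for 2, against 16.2% and 18.4% of the 10977 genes. The 14 included LIG1, which encodes a DNA ligase, at 0.40 (0.20 to 0.60), and PARP1, which encodes a strand break sensor, at 0.35 (0.27 to 0.43). The 4 highest were UNG and NTHL1, which encode glycosylases, PARP2, which encodes a strand break sensor, and POLD1, which encodes a replicative polymerase subunit, with log2 ratios of 0.57, 0.55, 0.50 and 0.49. The 4 lowest were the glycosylase gene NEIL1 at -0.56, the topoisomerase gene TOP1 at -0.28, the end-processing factor gene APLF at -0.23 and the polymerase gene POLL at -0.21. The intervals of APLF and POLL included no difference. UMIs were 240 with estradiol and 189 with vehicle for UNG, and 49 and 84 for NEIL1. Of the list, 13 genes were also in the targeted panel, and 0 were 1.5-fold higher or lower there, where 3.3% and 11.8% of 940 genes were. Panel intervals lay above no difference for 9 of the 13 and below it for 4, against 26.4% and 50.9% of the 940 genes. The median panel log2 ratio was 0.28 over the 13 and -0.11 over the 940. The highest in the panel was FEN1, which encodes a flap endonuclease, at 0.44 (0.41 to 0.47). PCNA, POLD1 and PARP1 followed at 0.37, 0.35 (0.28 to 0.41) and 0.31. The lowest was POLB at -0.30 (-0.38 to -0.22), then TOP1, MUTYH and XRCC4 at -0.26, -0.13 and -0.12. PARP2 and NTHL1 had 0.30 (0.25 to 0.35) and 0.28 (0.22 to 0.34) in the panel. For PARP2, NTHL1 and POLD1 the panel ratio was smaller than that of the all-gene rows. APEX1 was not in the panel rows. The ratios of the list are over all cells, and the libraries differed in their mix of phases. Cells in G1, S and G2M numbered 1163, 977 and 1227 with estradiol, and 2493, 773 and 1674 with vehicle. Apart from APEX1 the list was not compared within phases, so a part of the mix of phases in these ratios was not tested.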

How the data were processed

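Per the file headers, the authors deposited 1 matrix with a column per cell and an annotation with each cell's treatment, cluster and phase. The deposited values are on a natural log scale. A value is the natural log of 1 + x, where x is a UMI count per 10000 UMIs of that block in that cell, and 100% of values above 0 came out as whole counts within 1e-06. The recovered counts were used, and their sums matched the count totals that the authors deposited in 100% of cells. The mitochondrial percent in the deposited annotation was used only to split cells into 4 groups, in which the window log2 ratio was -0.16 to -0.13. The all-gene block has plain gene symbols, and the sources used here do not say how it was sequenced; the targeted block is the panel. The submitters' processing notes name, with no role, UMI-tools 0.5.3, SAMtools, Bowtie2 2.3.2, cutadapt 1.8.3, Cell Ranger 3.0.2 and the build hg38. A further 11 columns of values were not used.

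UMIs were summed over cells of a library, since cells are not replicates. Shares are of a hairpin's own UMIs unless all repair UMIs are named. Intervals are exact 95% intervals. The count minimum was 200 UMIs per position and 50 per gene. Named positions were 44 to 50, the 10 with most UMIs, the 5 highest and 5 lowest ratios and the highest of each 10. Genes were APEX1 and the 4 highest and 4 lowest of the list, per block; POLB, XRCC1, LIG3, LIG1 and PARP1 were added after their values were seen. The members, window and lists were chosen with earlier results of these data known. No doublet caller was run and no deposited cell was left out; leaving out the 5% of cells with most repair UMIs was tried. Bins of all-gene UMIs and the omission of cluster 3 were chosen after seeing the data. The ratio scripts were tested on simulated library sums with known folds and counting error only, so variation between cells was not part of that test. Python 3.11.15, numpy 2.4.6, scipy 1.17.1 and pandas 2.3.3 were used.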

Additional observations from a re-analysis of the deposited data

How the results depend on the processing

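The log2 ratios of the Abasic share, the window share and the position 46 share stayed below 0 under every alternative of this section. Single bins and single clusters were not among these alternatives. There the position 46 ratio was above 0 from 2000 all-gene UMIs (0.01 and 0.03), in cluster 3 (0.02) and in cluster 5 (0.004), with intervals that included no difference. The window ratio was above 0 in 3 of 15 combinations of phase and bin, and in 6 of 22 of cluster and bin. In some combinations the position 46 interval lay above 0. From 1500 to under 2000 the ratio was 0.18 (0.09 to 0.27) in cluster 5 and 0.05 (0.01 to 0.10) in G1. From 2000 to under 3000 it was 0.12 (0.06 to 0.19) in cluster 0 and 0.05 (0.01 to 0.09) in G2M. At 3000 and above it was 0.17 (0.07 to 0.27) in cluster 4. Other intervals lay below 0, as in S under 1000, at -0.23 (-0.28 to -0.17). The Abasic share of repair UMIs, -0.0951 as reported, was -0.0859 scaled to the Normal hairpin, -0.0775 with equal weight to each phase, -0.1049 in G1, -0.0488 in S, -0.0773 in G2M, -0.0775 with equal weight to each cluster and -0.1129 without cluster 3. The window share, -0.1405 as reported, was -0.1068 in cells with at least 800 all-gene UMIs, -0.0883 with equal weight to each cell, -0.1633 in S, -0.1057 in G2M, -0.0664 with equal weight to each cluster, -0.0483 with equal weight to each bin of all-gene UMIs and -0.0947 without cluster 3. Position 46, -0.1529 as reported, was -0.1105, -0.0894, -0.1855, -0.0929, -0.0572, -0.0384 and -0.0979 under the same 7 alternatives. The count of positions at least 1.5-fold higher, 0 as reported, was 1 on the scale of Abasic UMIs, 1 in cells thinned to 500 repair UMIs and 1 in G1, each time position 24, and 2 with no minimum (positions 31 and 42). The count of lower positions, 0 as reported, was 1 in G2M and 1 with equal clusters (position 56), and 1 with no minimum (position 61). Among positions whose interval excluded no difference, signs changed with equal weight to each bin at position 6 (-0.0319), position 15 (-0.0056) and position 24 (-0.0072), with equal weight to each cluster at position 15 (-0.0418), and in G1 at position 50 (0.0566). Of 252 values for the 21 named positions under alternatives, 156 stayed within the counting interval, 91 moved outside it and 5 were those changes of sign. A further 12 changes of sign, at positions 21, 47, 49, 52, 55 and 56, were at positions whose reported interval included no difference, among them position 21 with equal bins (-0.1424) and position 56 in G1 (0.3919). The causes were not tested. Depth limits the 21 positions under the minimum, whose ratios rest on 1322 UMIs in all. No paired analysis was possible because each treatment has 1 library and the labels carry no replicate numbers.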
